A study of Mus musculus with 36 samples.

Results

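NRF2 (encoded by Nfe2l2) is a transcription factor that switches on antioxidant and detoxifying genes, and 10 of its established target genes are described here in cultured mouse lung pericyte-like cells: Slc7a11, Gclc, Gclm, Gsr, Txnrd1, Srxn1, G6pdx, Nqo1, Hmox1 and Osgin1. They were found in the table of read counts by matching each Ensembl identifier, with its version removed, to a mouse gene symbol, and they are 10 of the table's 48795 identifiers. All 10 were among the 15901 genes abundant enough to be tested. The cells came from mouse lung digests grown in culture, depleted of cells carrying CD31, CD45 or CD326, and then selected for PDGFRβ, a receptor of pericytes and other mesenchymal cells. They were kept in reduced serum medium mixed with an equal volume of buffered saline (media), of uninjured bronchoalveolar lavage fluid (BALF), or of injured BALF. RNA was taken after 6 h or 24 h, from female and from male cells, with 3 libraries for each sex, treatment and time, so each treatment and time had 6 libraries and there were 36 in all. The kind of injury, the mouse strain and age are not stated in the labels, nor do they say if the replicates were different mice or different dishes. The p-values below therefore measure only the spread between these libraries, which may be technical. BALF and injury status were compared to ask how the fluid that lines healthy and injured lungs changes gene expression in these cells.

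In unstressed cells NRF2 is bound by KEAP1 and sent for degradation. Electrophiles and oxidants modify KEAP1, NRF2 accumulates, pairs with a small MAF protein and binds antioxidant response elements near its target genes, where the repressor BACH1 can compete with it. The targets raise cystine import, glutathione synthesis, thioredoxin and glutathione recycling, NADPH supply, quinone reduction and heme breakdown. In lung they are known for protecting cells from inhaled oxidants and from inflammation.

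Short windows of the mouse reference (RefSeq, GRCm38.p6) are printed to show the kinds of sequence at the starts of some of these genes. Promoter windows, from 250 bases before to 50 bases after a RefSeq start, were at hand for 7 of the 10 genes, in 9 windows: Slc7a11, Srxn1, Gclm, Nqo1, Txnrd1, Osgin1 and G6pdx. Both strands were searched for TGACNNNGC (the antioxidant response element core, found in 12.4% of all 32851 windows of this length), TGAGTCA (the AP-1 site, in 5.2%), TGANTCAGC (in 1.19%, a motif chosen after the windows had been read) and TGATGNAAN (the amino acid response element core bound by ATF4, in 3.95%). The windows below run 5′ to 3′ on the gene's strand, with the matched bases in capitals. A match is a description of the letters and not a shown binding site.
Srxn1, TGANTCAGC, 45 bases before the start, chr2:152105470-152105497 (+): aattcacccTGAGTCAGCggccgggcgc
Osgin1, TGANTCAGC on the other strand, 99 bases before the start, chr8:119437039-119437066 (+): ggggcccctGCTGACTCAcgcttatgaa
Gclm, TGACNNNGC on the other strand, 134 bases before the start, chr3:122245414-122245441 (+): ctcccgggcGCACCGTCAactctcacga
Txnrd1, TGACNNNGC on the other strand, 92 bases before the start, chr10:82859105-82859132 (+): tggatttttGCTTTGTCAttctgacacg
G6pdx, TGACNNNGC on the other strand, 57 bases before the start, chrX:74428919-74428946 (-): ggcgggtcaGCTCAGTCAaagcacacgc
Slc7a11, TGATGNAAN, 66 bases before the start, chr3:50443661-50443688 (-): tcatgtggcTGATGCAAAcctggagaat
Slc7a11, TGATGNAAN on the other strand, 48 bases before the start, chr3:50443643-50443670 (-): cctggagaaTTTGCATCAtcatgcagcc
The matches in Srxn1 and Osgin1 contain an AP-1 site that overlaps the longer motif, and Srxn1 held a further AP-1 site 102 bases before its start and a TGACNNNGC match on the other strand 28 to 36 bases after it, neither printed. The pair of Slc7a11 matches is shown because Slc7a11 is also a known target of ATF4. The Nqo1 window held none of the 4 motifs.

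Library totals ran from 17134840 to 35991683 counts, and the members' counts ran from 105 for Osgin1 to 146916 for Hmox1 in a single library. Pdgfrb was measured at 256 to 862 CPM (the count scaled by edgeR to a common library total) in the 36 libraries, Cspg4 at 14.2 to 270.1 and Notch3 at 8.91 to 86.2. Kcnj8 and Abcc9, which mark pericytes in many tissues, stayed at or below 0.642 CPM. The other pericyte markers on the list were Mcam (30.9 to 293 CPM), Des (7.97 to 165) and Rgs5 (2.29 to 24.4). Of the lung fibroblast markers, the collagens Col1a1 (5302 to 12697 CPM) and Col1a2 were abundant in every library. The others were lower: Pdgfra (36.8 to 319 CPM), Dcn (26.4 to 191), Tcf21 (1.78 to 19.4) and Lum (0.674 to 8.84). Some libraries stood apart in the 10 genes. After 6 h of injured BALF, female replicate 3 and male replicate 3 were among the highest 2 of 6 libraries for all 10 genes, with medians 0.78 and 1.08 above the set's median on the log2 scale. After 24 h of injured BALF, female replicate 2 (0.93 above) was the highest library for 8 genes, after 24 h of uninjured BALF female replicate 1 (1.06 above) was the highest for 8, and in media at 6 h female replicate 3 (0.72 above) was the highest for 7. In most groups replicates 1 and 2 were closer to each other than to replicate 3, so results are also given with replicates 1 and 2 summed to 1 library where that changes them. A further 4 libraries, none of them from injured BALF, carry serial numbers of another range in the labels and had macrophage marker sums of 14 to 15.4 CPM against 36.3 to 93.5 elsewhere. Because these are bulk samples, fewer cells of a type and less RNA per cell cannot be told apart.

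**Figure D1:**
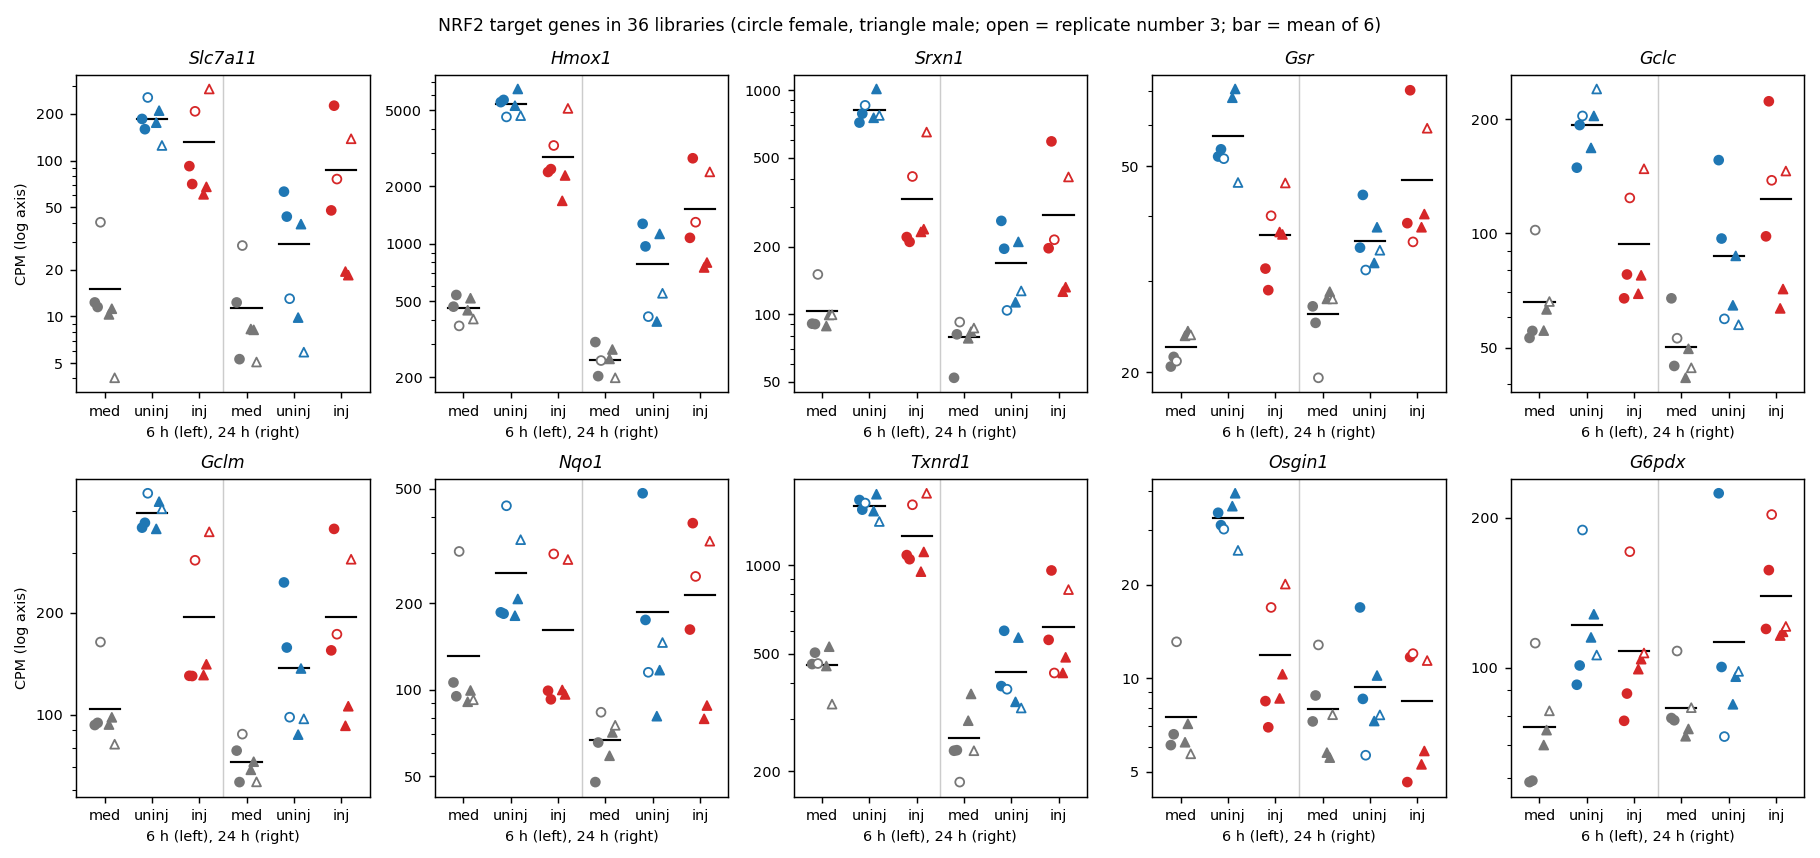
Level of each NRF2 target gene in every library, in CPM on a log axis, by treatment at 6 h (left) and 24 h (right). Circles are female and triangles male libraries, open symbols are replicate 3, and bars are means of 6 libraries. The mean was highest in uninjured BALF at 6 h for 9 of 10 genes, and G6pdx had its highest mean in injured BALF at 24 h.

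Uninjured BALF at 6 h was the condition with the highest mean for 9 of the 10 genes. Against media, 9 of the 10 genes rose (edgeR's quasi-likelihood test, adjusted p at or below 0.05 over all 15901 genes), where 10.6% of all tested genes rose. The median log2 fold change of the 10 was 1.86, against -0.01 over all tested genes. The libraries of the treatments did not overlap for 8 of the 10 (7.18% of all genes were higher without overlap), the exceptions being Nqo1 and G6pdx. At 24 h 1 gene rose against media, where 0.516% of all tested genes rose.

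The genes that supply glutathione were considered first. Slc7a11, on chromosome 3 (49892526 to 50443614, minus strand, GRCm38), encodes the transporter that exchanges cystine for glutamate. Its lowest, median and highest CPM were 4.04, 11.4 and 40.2 in media at 6 h, 125, 179.9 and 254 in uninjured BALF, and 60.7, 81.4 and 288 in injured BALF. Every BALF library lay above every media library, and the pair of BALF sets overlapped. Slc7a11 rose by 3.77 ± 0.63 (log2 fold change ± SE, edgeR adjusted p = 9.2e-05) in uninjured BALF and by 3.28 ± 0.61 (adjusted p = 1.9e-04) in injured BALF, and both comparisons share the media libraries. At 24 h the values were 5.1, 8.25 and 28.5 in media, 5.9, 26 and 63.2 in uninjured BALF, and 18.4, 62 and 225 in injured BALF. The 3 sets overlapped, and only injured BALF passed against media (2.97 ± 0.61, edgeR adjusted p = 6.8e-04, against 1.36 ± 0.59, adjusted p = 0.36, in uninjured BALF).

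Gclc (chromosome 9) and Gclm (chromosome 3) encode the catalytic and modifier subunits of glutamate-cysteine ligase, which makes the first, rate-limiting step of glutathione synthesis. Gclc was measured at 53, 59.2 and 102 CPM (lowest, median, highest) in media at 6 h, at 149, 198 and 240.3 in uninjured BALF, and at 67.4, 77.7 and 148 in injured BALF. Uninjured BALF stood above both other sets without overlap, and injured BALF overlapped media. Gclm showed the same order, with 81.9, 94.2 and 164 in media, 354, 387 and 451 in uninjured BALF, and 130.2, 136 and 347 in injured BALF. The 347 and the next value, 286, belonged to the libraries labelled replicate 3, and the next was 141. In uninjured BALF at 6 h both subunits rose against media, Gclc by 1.55 ± 0.25 (edgeR adjusted p = 7.2e-05) and Gclm by 1.93 ± 0.29 (adjusted p = 3.1e-05). In injured BALF at 6 h Gclc did not pass (0.52 ± 0.25, edgeR adjusted p = 0.13), and Gclm passed (0.90 ± 0.29, adjusted p = 0.02) but lost its call without replicate 3 (0.48, adjusted p = 0.11) and with replicates 1 and 2 summed (adjusted p = 0.056). At 24 h both were higher in injured BALF than in media, Gclc by 1.27 ± 0.25 (edgeR adjusted p = 4.7e-04) and Gclm by 1.41 ± 0.29 (adjusted p = 6.8e-04).

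Gsr (chromosome 8) encodes glutathione reductase, which returns oxidized glutathione to its reduced form at the cost of NADPH. It was measured at 20.5, 22.5 and 24 CPM in media at 6 h, at 46.5, 53.1 and 70.5 in uninjured BALF, and at 28.8, 37.1 and 46.4 in injured BALF. The 3 sets did not overlap, so that injured BALF lay between media and uninjured BALF. Gsr rose by 1.35 ± 0.14 (edgeR adjusted p = 2.4e-07) in uninjured BALF and by 0.72 ± 0.14 (adjusted p = 3.2e-04) in injured BALF at 6 h. At 24 h it was measured at 19.5 to 28.6 CPM in media, 31.5 to 44 in uninjured BALF and 35.7 to 70.1 in injured BALF. Injured BALF was higher than media by 0.87 ± 0.14 (edgeR adjusted p = 4.5e-05), and uninjured BALF lay above media without overlap but did not pass the test (0.48 ± 0.14, adjusted p = 0.12).

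Txnrd1 (chromosome 10) encodes the cytosolic thioredoxin reductase. Its CPM at 6 h was 338, 463 and 529 in media, 1405, 1582 and 1738 in uninjured BALF, and 950.0, 1094 and 1751 in injured BALF. Both BALF sets lay above media. The highest injured libraries, at 1751 and 1601, were again those labelled replicate 3. The first lay above every uninjured library and the second within the uninjured set. Srxn1 (chromosome 2) encodes sulfiredoxin, which repairs overoxidized peroxiredoxins, and was measured at 88.5, 95 and 150.5 CPM in media, 717, 779 and 1013 in uninjured BALF, and 210.4, 236 and 650.3 in injured BALF. No set of Srxn1 overlapped another at 6 h. The rises at 6 h were 1.79 ± 0.20 (edgeR adjusted p = 6.7e-07) and 1.45 ± 0.20 (adjusted p = 3.9e-06) for Txnrd1 and 2.99 ± 0.34 (adjusted p = 5.7e-07) and 1.66 ± 0.32 (adjusted p = 2.8e-04) for Srxn1, in uninjured and injured BALF. At 24 h Txnrd1 had means of 259 ± 63.5 (SD, n = 6), 435 ± 118 and 615 ± 224 CPM in media, uninjured and injured BALF, and Srxn1 78.9 ± 14.1, 169 ± 63.2 and 279 ± 184. Only injured BALF passed against media at that time, for Txnrd1 by 1.27 ± 0.20 (edgeR adjusted p = 3.7e-05) and for Srxn1 by 1.79 ± 0.32 (adjusted p = 1.6e-04).

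G6pdx and Nqo1 had the smallest fold changes in uninjured BALF at 6 h. G6pdx, on the X chromosome, encodes glucose-6-phosphate dehydrogenase, the entry enzyme of the pentose phosphate pathway and a source of NADPH. It was measured at 58.9, 72.4 and 112 CPM in media at 6 h, 92.4, 111 and 189 in uninjured BALF, and 78.2, 102 and 171 in injured BALF, and the 3 sets overlapped. Its rise in uninjured BALF was 0.68 ± 0.22 (edgeR adjusted p = 0.033), a call lost without any 1 of 8 libraries and with replicates 1 and 2 summed (adjusted p = 0.18), and in injured BALF it did not pass (0.50 ± 0.22, adjusted p = 0.1). Nqo1 (chromosome 8, minus strand) encodes the quinone reductase often used as a readout of NRF2. Its CPM was 90.8, 97.1 and 303 in media, 181, 196 and 437 in uninjured BALF, and 92.6, 99.5 and 297 in injured BALF. The media value of 303 came from female replicate 3, with the next highest media library at 106, and in injured BALF the libraries labelled replicate 3 held 297 and 284 while the next was 99.8. Nqo1 did not pass in either BALF at 6 h (1.01 ± 0.41, edgeR adjusted p = 0.084, and 0.36 ± 0.41, adjusted p = 0.57), but passed in uninjured BALF without female media replicate 3 (1.39, adjusted p = 0.026). At 24 h both genes were higher in injured BALF than in media, Nqo1 by 1.64 ± 0.42 (edgeR adjusted p = 0.0046) and G6pdx by 0.74 ± 0.22 (adjusted p = 0.017). The call of G6pdx was lost with replicates 1 and 2 summed (adjusted p = 0.11) and without the 4 libraries of the other serial range (adjusted p = 0.058).

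Hmox1 (chromosome 8, 75093621 to 75100589) encodes heme oxygenase 1, which breaks heme into iron, carbon monoxide and biliverdin. It was measured at 372, 459 and 540.0 CPM in media at 6 h, 4617, 5401 and 6466 in uninjured BALF, and 1679, 2419 and 5116 in injured BALF. Both BALF sets stood far above media, and 1 injured library (5116, male replicate 3) reached into the uninjured set, the next being 3272. Hmox1 rose by 3.55 ± 0.34 (edgeR adjusted p = 7.1e-08) in uninjured BALF and by 2.64 ± 0.33 (adjusted p = 7.0e-07) in injured BALF. At 24 h the values were 199, 247 and 306 in media, 392, 760.1 and 1273 in uninjured BALF, and 752, 1187 and 2805 in injured BALF. Hmox1 passed against media in uninjured BALF at 24 h, and the other 9 did not (1.66 ± 0.32 for Hmox1, edgeR adjusted p = 0.0058). That call was lost with replicates 1 and 2 summed (adjusted p = 0.21) and without the 4 libraries of the other serial range (adjusted p = 0.094). In injured BALF at 24 h it was higher than media by 2.61 ± 0.33 (edgeR adjusted p = 1.4e-06).

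Osgin1 (chromosome 8) encodes an oxidative stress-induced growth inhibitor. Its CPM at 6 h was 5.71, 6.41 and 13.1 in media, 25.8, 32.6 and 39.4 in uninjured BALF, and 6.95, 9.48 and 20.1 in injured BALF. Uninjured BALF stood alone, and injured BALF overlapped media. It rose by 2.14 ± 0.29 (edgeR adjusted p = 7.3e-06) in uninjured BALF and did not pass in injured BALF (0.68 ± 0.29, adjusted p = 0.084). At 24 h its means lay between 7.97 ± 2.66 and 9.37 ± 3.99 CPM in the 3 treatments, and the largest difference of a BALF from media was 0.26 ± 0.29. Osgin1 was the only member not called higher in injured BALF at 24 h.

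Counted over the 10 genes, 6 were higher in injured BALF than in media at 6 h (13.9% of all tested genes were) and 9 at 24 h (11.5%). The medians were 0.81 and 1.34 on the log2 scale, against -0.01 over all genes at both times. At 24 h uninjured BALF gave 1 call (0.516% of all genes rose), with a median of 0.83 against 0 over all genes, and all 10 fold changes were positive. An unadjusted p under 0.05 was reached by 8 of the 10 in that comparison, and the count of calls was 0 without replicate 1 or 2 and 8 without replicate 3. The count of 6 at 6 h became 9 without female media replicate 3, when Gclc (adjusted p = 0.048), Osgin1 (0.029) and G6pdx (0.027) passed as well, and the count of 9 at 24 h became 6 without replicate 2. Injured BALF stood above media without overlap for 5 genes at 6 h (9.42% of all genes) and 6 at 24 h (4.48%), and uninjured BALF at 24 h for Hmox1, Srxn1 and Gsr (0.447%).

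**Figure D2:**
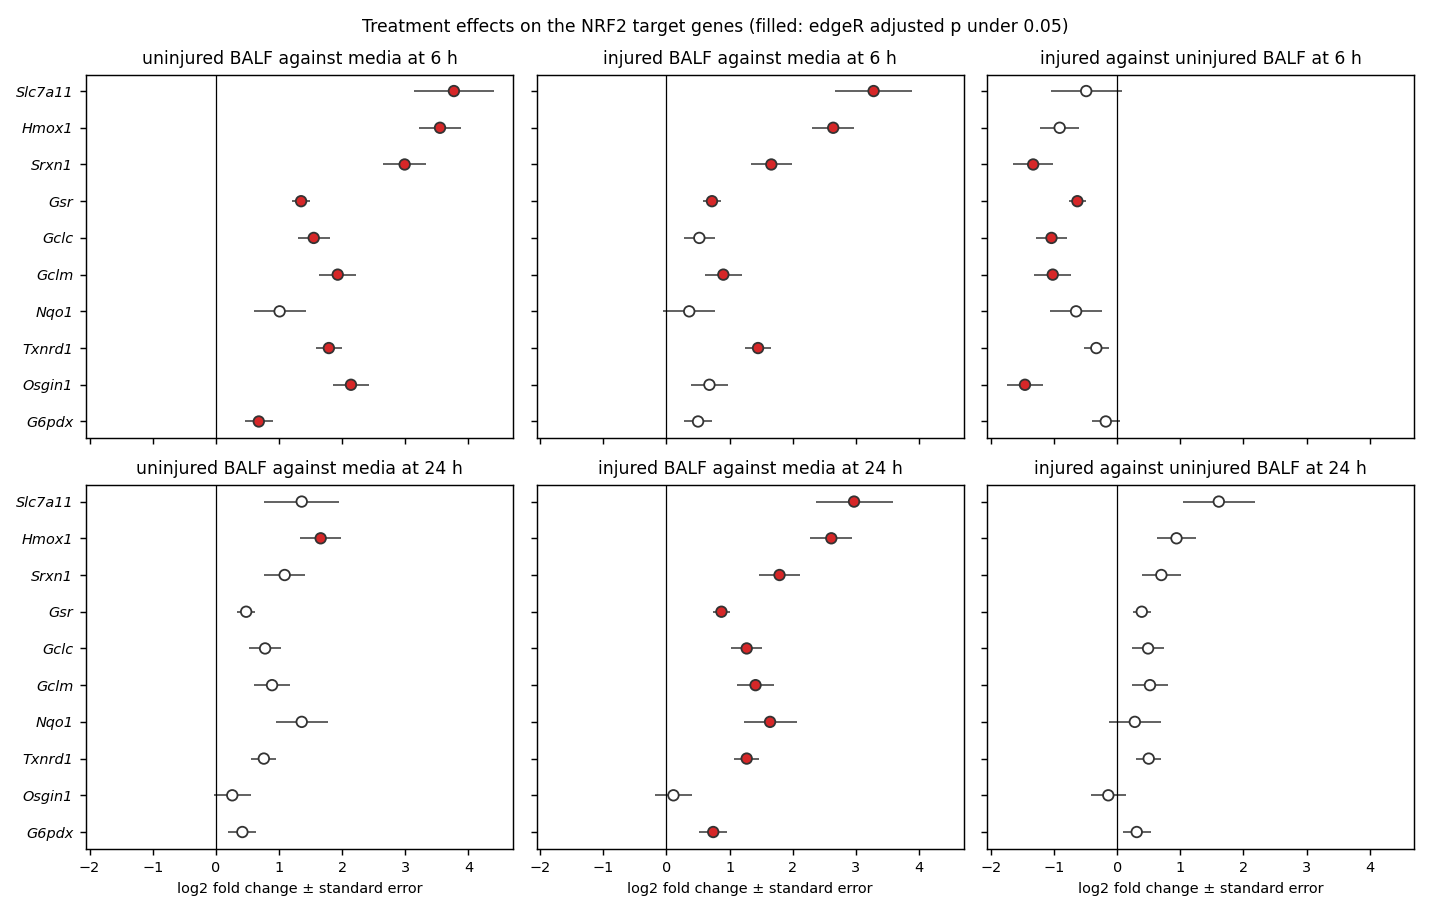
Log2 fold change ± SE of each NRF2 target gene in 6 comparisons, with filled symbols where edgeR's adjusted p was below 0.05. Uninjured BALF against media at 6 h reached 3.77 for Slc7a11, and injured against uninjured BALF at 6 h lay below 0 for all 10 genes.

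Injured and uninjured BALF were then compared directly. At 6 h all 10 genes had lower means in injured BALF, and 5 of the 10 fell (edgeR adjusted p at or below 0.05), where 1.46% of all tested genes fell. The 5 were Osgin1 (-1.46 ± 0.29, adjusted p = 0.0019), Gsr (-0.63 ± 0.14, adjusted p = 0.0063), Srxn1 (-1.33 ± 0.32, adjusted p = 0.013), Gclc (-1.04 ± 0.25, adjusted p = 0.014) and Gclm (-1.02 ± 0.29, adjusted p = 0.041). These 5 were also those whose 6 injured libraries all lay below all 6 uninjured libraries (1.36% of all genes did). The others were Hmox1 (-0.91 ± 0.31, edgeR adjusted p = 0.12), Nqo1 (-0.65 ± 0.41, 0.54), Slc7a11 (-0.49 ± 0.56, 0.81), Txnrd1 (-0.33 ± 0.20, 0.52) and G6pdx (-0.18 ± 0.22, 0.84). The median of the 10 was -0.78 against 0 over all genes.

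The 5 calls depended on which libraries entered. With replicates 1 and 2 summed to 1 library none of the 10 passed (edgeR), and the log2 fold changes of the 5 were then -1.23 for Osgin1 (adjusted p = 0.17), -1.12 for Srxn1 (0.29), -0.93 for Gclc (0.25), -0.84 for Gclm (0.5) and -0.53 for Gsr (0.23). Without replicate 3 the count rose to 8, with Hmox1 (-1.39, edgeR adjusted p = 0.0062), Nqo1 (-0.96, 0.038) and Txnrd1 (-0.63, 0.049) added. Leaving out 1 library at a time gave 2 to 6 calls. There were 2 without male injured replicate 1 or replicate 2, 3 without female injured replicate 1, and 6 without male injured replicate 3, when Hmox1 passed (adjusted p = 0.023).

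At 24 h none of the 10 passed between injured and uninjured BALF in edgeR (2.38% of all genes were higher and 2.04% lower). An unadjusted p under 0.05 was reached by 5, and DESeq2 called Hmox1 (adjusted p = 0.033). The fold changes were positive for 9 of the 10, with a median of 0.50 against 0 over all genes, and were largest for Slc7a11 (1.61 ± 0.57, edgeR adjusted p = 0.11) and Hmox1 (0.94 ± 0.31, adjusted p = 0.083). The sets overlapped for all 10 genes (1.06% of all genes were higher and 0.975% lower without overlap). Slc7a11 (adjusted p = 0.037) and Hmox1 (0.027) passed without male uninjured replicate 2. The difference between the injury effects at 24 h and at 6 h passed for Srxn1 (2.03 ± 0.44, edgeR adjusted p = 0.047) and Gsr (1.02 ± 0.20, adjusted p = 0.022), against 0.151% of all genes. The estimate was positive and did not pass for Hmox1 (1.85 ± 0.44, adjusted p = 0.073), Gclc (1.53 ± 0.35, 0.059), Gclm (1.54 ± 0.40, 0.12) and Slc7a11 (2.10 ± 0.80, 0.4). The Srxn1 call was lost in 23 and the Gsr call in 4 of the 36 fits that left out 1 library, and neither passed with replicates 1 and 2 summed (adjusted p = 0.8 and 0.7).

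Between 6 h and 24 h the genes fell mainly in uninjured BALF. There 8 of the 10 fell (15.5% of all genes fell), and the libraries at 24 h lay below those at 6 h without overlap for 7 (8.72% of all genes). Hmox1 fell by 2.78 ± 0.33 on the log2 scale (edgeR adjusted p = 5.6e-07), Slc7a11 by 2.77 ± 0.60 (8.1e-04), Srxn1 by 2.28 ± 0.33 (7.1e-06), Txnrd1 by 1.87 ± 0.20 (1.8e-07) and Osgin1 by 1.81 ± 0.29 (3.0e-05). Gclm, Gclc and Gsr fell by 1.56 ± 0.29, 1.18 ± 0.25 and 0.67 ± 0.14. Nqo1 (-0.57 ± 0.41, edgeR adjusted p = 0.31) and G6pdx (-0.14 ± 0.22, 0.68) did not pass. In injured BALF 2 fell (14.2% of all genes), Txnrd1 by 1.03 ± 0.20 (edgeR adjusted p = 3.3e-04) and Hmox1 by 0.93 ± 0.31 (0.026), and the Hmox1 call was lost without any 1 of 6 libraries and with replicates 1 and 2 summed (0.071). The sets at 6 h and 24 h overlapped there for all 10 genes (6.77% of all genes were higher and 8.87% lower at 24 h without overlap). In media Txnrd1 fell by 0.84 ± 0.20 (edgeR adjusted p = 0.012, 3.33% of all genes fell), a call lost with replicates 1 and 2 summed (0.1), and Hmox1 and Nqo1 were lower without overlap (1.43%). The uninjured BALF effect itself was smaller at 24 h than at 6 h for 4 genes (1.27% of all genes): Srxn1 by -1.90 ± 0.45, Hmox1 by -1.89 ± 0.44, Osgin1 by -1.88 ± 0.40 and Gsr by -0.87 ± 0.20 (edgeR adjusted p from 0.013 to 0.022). All 4 calls were lost with replicates 1 and 2 summed or without the 4 libraries of the other serial range.

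Levels were compared between genes only per kilobase of exon. In media at 6 h Hmox1 led with 262 ± 37.1 CPM per kb (SD, n = 6), followed by Nqo1 (84.5 ± 54.5), Txnrd1 (64.8) and Srxn1 (36.6). The order of Nqo1 and Txnrd1 rested on female replicate 3: without it the Nqo1 mean was 62.3 CPM per kb, and the medians of the 6 libraries were 62.5 for Nqo1 and 65.4 for Txnrd1. Osgin1 (2.8 ± 1.05) and Slc7a11 (1.07 ± 0.915) were lowest. In uninjured BALF at 6 h Hmox1 reached 3069 ± 391 CPM per kb, Srxn1 289 ± 37.8 and Txnrd1 223 ± 16.5, so that Srxn1 moved ahead of Nqo1 (164 ± 68.8). Slc7a11 (13.2 ± 3.16) and Osgin1 (12.2 ± 1.78) remained lowest and did not differ beyond their spread.

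**Figure D3:**
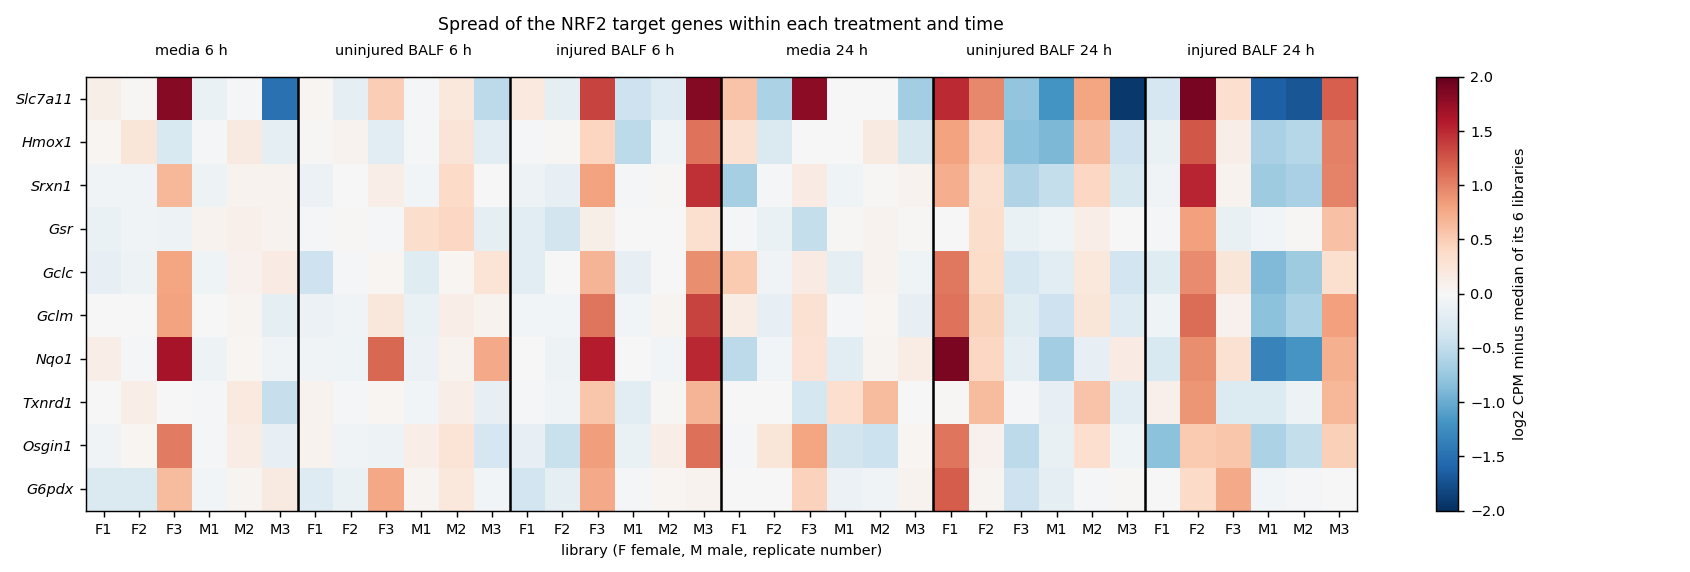
Difference of each library's log2 CPM from the median of its 6 libraries of the same treatment and time, for the 10 genes (vertical) and 36 libraries (horizontal), from -1.93 to 1.90. The libraries that stand apart do so for most of the 10 genes at once, as in injured BALF at 6 h, where male replicate 3 is the highest library for 8 genes.

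The genes also moved together within groups. Over the 45 pairs of genes the median Pearson correlation of log2 CPM was 0.81 (0.34 to 0.97) across the 36 libraries, 0.72 (0.02 to 0.94) across the same libraries after subtracting each group's mean, and 0.83 (0.43 to 0.98) across 12 group means. These are descriptions, since the points share treatments, libraries and scaling. Srxn1 followed the others most closely (median 0.9 over 36 libraries) and G6pdx least (0.59). The libraries highest for these genes differed in markers of other cells. The summed CPM of 8 endothelial markers was 191 in injured BALF at 6 h male replicate 3 and 126 in female replicate 3 (28.9 to 191 over that set), 151 in media at 6 h female replicate 3 (9.54 to 151) and 131 in uninjured BALF at 24 h female replicate 1 (8.43 to 131). The summed CPM of 5 mesothelial markers in these 4 libraries was 191, 61.2, 77.1 and 69.9, the highest of its set in all but the female injured library. In injured BALF at 24 h it was 19.3 in female replicate 2 (endothelial sum 66.5) and 138 in male replicate 3 (endothelial sum 169), which was 0.69 above its set's median for the 10 genes. In these 4 libraries and in injured BALF at 24 h female replicate 2 the pericyte marker sum was between 539.6 and 775. It was the lowest of its set in all of them but the female injured library at 6 h. The sets ran from 775 to 1349.9 (media 6 h), 596 to 1028 (injured BALF 6 h), 662 to 1079.9 (uninjured BALF 24 h) and 539.6 to 803 (injured BALF 24 h). Male replicate 3 in uninjured BALF at 6 h had similar endothelial (185) and mesothelial (213) sums. Its pericyte sum (759.8) was also the lowest of its set, and it was not among the libraries high for most of the 10 genes. The part of these markers in the spread was not tested.

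Marker sums between treatments were as follows. The 8 pericyte markers summed to 1161 ± 219 CPM (SD, n = 6) in media, 921 ± 128 in uninjured BALF and 847 ± 176 in injured BALF at 6 h, and to 1089 ± 152, 886 ± 166 and 648 ± 112 at 24 h. In the same order, the 6 lung fibroblast markers summed to 18325 ± 3721, 16169.6 ± 3067 and 14019 ± 3149 at 6 h. Their sums at 24 h were 18628 ± 3540.0, 16996 ± 4006 and 13495 ± 3111. Endothelial sums were 64.9 ± 50.3, 90.3 ± 63.6 and 87.5 ± 62.3 at 6 h and 56.6 ± 54.7, 61.9 ± 46.5 and 77.6 ± 53.5 at 24 h. Mesothelial sums were 39.4 ± 21.5, 74.8 ± 68.5 and 60.4 ± 65.2 at 6 h and 45.3 ± 23.9, 39.6 ± 18 and 43.6 ± 47 at 24 h. The 14 macrophage markers summed to 14.4 to 77 CPM in media, 59.6 to 87.4 in uninjured BALF and 60.1 to 89.9 in injured BALF at 6 h. The 6 neutrophil markers stayed at or below 4.74 CPM outside injured BALF at 24 h, where they summed to 5.35 to 8.98 with Ly6g and Ngp at 0. The 5 erythroid markers never exceeded 0.263 CPM, with Hbb-bt at 0 in all 6 libraries of every treatment and time. These RNA values do not measure heme in the added fluid. Of the tested markers, 1 of 14 macrophage genes was higher and 1 of 7 pericyte and 1 of 8 endothelial genes were lower in uninjured BALF than in media at 6 h (edgeR), where 10.6% of all genes were higher and 7.82% lower, and between injured and uninjured BALF at 6 h 1 macrophage gene was lower (1.46% of all genes). In injured BALF against media at 24 h, 4 of 7 pericyte genes were lower and 4 of 14 macrophage and 3 of 3 neutrophil genes were higher (12.2% of all genes were lower and 11.5% higher). The part of the other cell types in the treatment differences was not tested.

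Nfe2l2, encoding NRF2 itself, was measured at 113 ± 6.28 CPM in media, 162 ± 13 in uninjured BALF and 189 ± 13.6 in injured BALF at 6 h, and at 128 ± 22.7, 145 ± 34.3 and 190.2 ± 16.6 at 24 h (SD, n = 6). It rose by 0.51 ± 0.11 (edgeR adjusted p = 0.0015) in uninjured BALF at 6 h and was not called between injured and uninjured BALF at 6 h (0.22, adjusted p = 0.38). At 6 h the Nfe2l2 mean was thus higher under injured BALF, where the 5 targets were lower. Of the 11 regulators, 6 rose in uninjured BALF at 6 h, where 10.6% of all tested genes rose. They were Nfe2l2, Sqstm1 (0.86 ± 0.12), which encodes an adaptor that sequesters KEAP1, the small MAF genes Maff (0.58 ± 0.10), Mafg (0.52 ± 0.10) and Mafk (0.62 ± 0.19), and Bach1 (0.57 ± 0.12). Keap1 did not pass (0.12 ± 0.10, edgeR adjusted p = 0.47). In injured BALF 5 rose at 6 h (13.9% of all genes did) and 4 at 24 h (11.5%) against media, and none was called between the 2 BALF treatments at 6 h. At 24 h Nfe2l2 alone was higher in injured than uninjured BALF (0.39, edgeR adjusted p = 0.036, with 2.38% of all genes higher), a call lost without any 1 of 7 libraries.

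**Figure D4:**
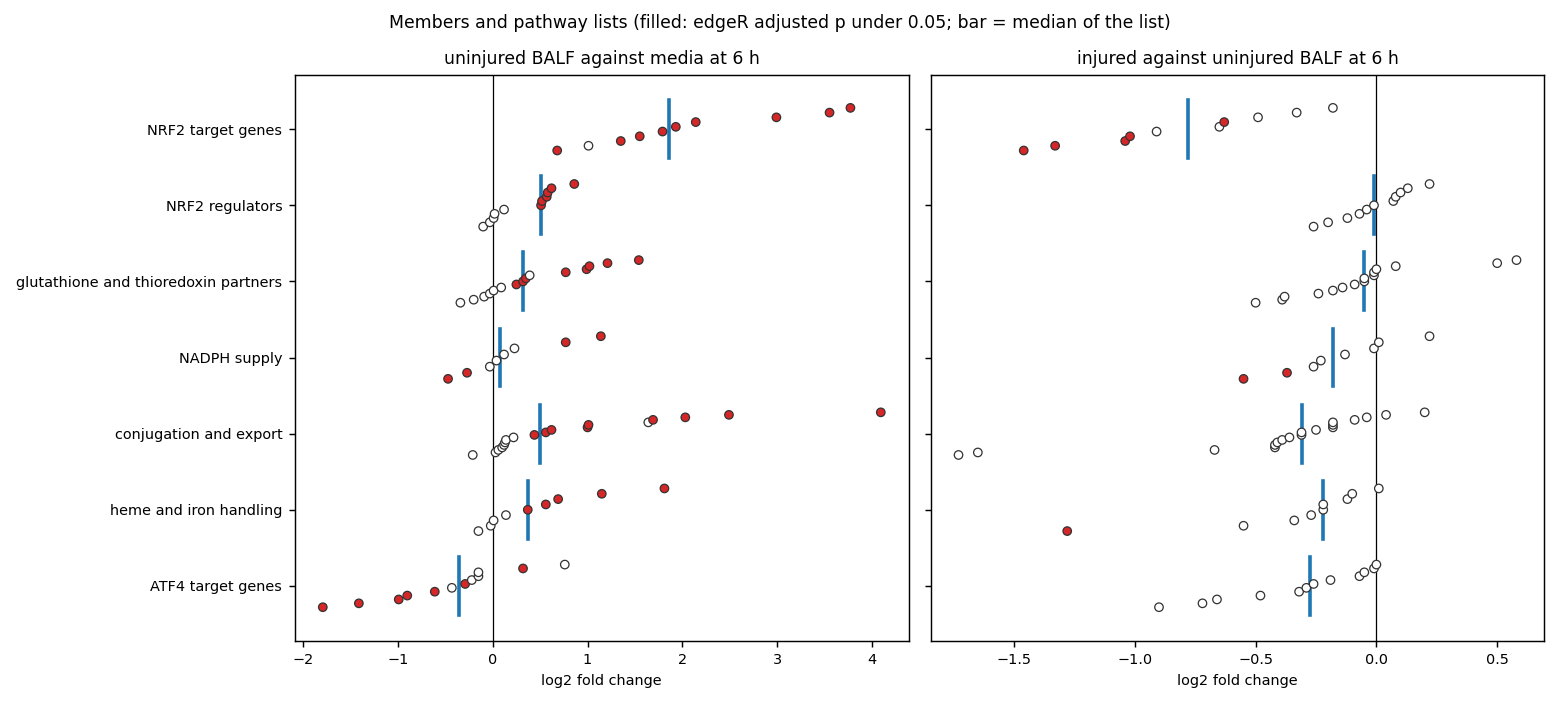
Log2 fold change of the 10 NRF2 target genes and of the genes of 6 related lists in uninjured BALF against media (left) and injured against uninjured BALF (right) at 6 h. Filled points passed edgeR's test, and bars are medians. The target genes have medians of 1.86 and -0.78, and the list of Atf4 and its targets has medians of -0.36 and -0.27.

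Other genes of the same pathways were read as lists. Of 15 tested partners in glutathione and thioredoxin metabolism, 8 rose and none fell in uninjured BALF at 6 h (median 0.32, with 10.6% of all genes rising and 7.82% falling). They included Ggct, which processes gamma-glutamyl peptides (1.54 ± 0.18, edgeR adjusted p = 1.3e-06), Gss, glutathione synthetase (0.99 ± 0.17, 1.4e-04), Glrx, glutaredoxin (1.02 ± 0.25, 0.0048) and Prdx6, a peroxiredoxin (0.77 ± 0.14, 3.7e-04). With replicates 1 and 2 summed, 3 rose. None was called between injured and uninjured BALF at 6 h, and at 24 h Glrx (0.94, edgeR adjusted p = 0.026) and Prdx6 (0.75, 0.0019) were higher in injured BALF (2.38% of all genes were).

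Of 18 tested genes of conjugation and export, 9 rose in uninjured BALF at 6 h (median 0.50), where 10.6% of all genes rose. Among them were the exporters Abcc4 (2.03 ± 0.30, edgeR adjusted p = 2.0e-05) and Abcc1 (1.01 ± 0.12, 1.5e-06), Cbr3, a carbonyl reductase (1.69 ± 0.25, 2.3e-05), and Ugdh, which makes UDP-glucuronate (1.00 ± 0.13, 3.0e-06). With replicates 1 and 2 summed 5 rose. In injured BALF at 24 h 12 were higher and 1 lower than media (median 0.94, with 11.5% of all genes higher and 12.2% lower). Injured against uninjured BALF gave no call at 6 h (median -0.31) and 3 at 24 h, where 2.38% of all genes were higher. The 3 were Abcc1 (0.52, edgeR adjusted p = 0.011), Abcc3 (0.94, 0.014) and Esd (0.51, 0.042).

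The NADPH genes were mixed at 6 h. Of 8, 2 rose and 2 fell in uninjured BALF at 6 h, where 10.6% of all genes rose and 7.82% fell. Pgd, the second dehydrogenase of the pentose phosphate pathway, was measured at 234 ± 15 CPM in media, 516 ± 32.2 in uninjured BALF and 353 ± 68.1 in injured BALF (SD, n = 6). It rose by 1.14 ± 0.15 (edgeR adjusted p = 3.2e-06) in uninjured BALF and was lower in injured BALF by -0.55 ± 0.14 (adjusted p = 0.028), a call lost without any 1 of 8 libraries. The other pentose phosphate gene that rose was Taldo1 (0.77, edgeR adjusted p = 0.019), and Mthfd2 (-0.47, 0.019) and Idh1 (-0.27, 0.043) fell. Idh1 was lower still in injured BALF at 6 h (-0.37 against uninjured BALF, edgeR adjusted p = 0.021), and with replicates 1 and 2 summed neither Pgd nor Idh1 passed between the BALF treatments. In the fit of all 36 libraries Idh1 was higher than media at 24 h in uninjured BALF (0.51, edgeR adjusted p = 0.0049) and injured BALF (0.47, 4.8e-04). There 0.516% and 11.5% of all genes were higher. Mthfd2 was lower than media in injured BALF at 24 h (-0.50, edgeR adjusted p = 0.01, 12.2% of all genes lower).

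Of 9 tested genes of heme and iron handling, 5 rose in uninjured BALF at 6 h (median 0.37), where 10.6% of all genes rose. Examples were Slc40a1, the iron exporter ferroportin (1.81 ± 0.37, edgeR adjusted p = 1.0e-03), Blvrb, a biliverdin reductase (1.15 ± 0.24, 9.2e-04), and Slc48a1, a heme transporter (0.56, 0.0022), and 3 rose with replicates 1 and 2 summed. Slc40a1 fell in injured against uninjured BALF at 6 h (-1.28 ± 0.37, edgeR adjusted p = 0.046), a call lost in 23 fits that left out 1 library. The genes that rose in uninjured BALF at 6 h include the ferritin genes Fth1 and Ftl1, which have near-identical copies in the genome. Reads may be split among these copies, so the values of Fth1 and Ftl1 are uncertain.

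ATF4, a factor of the amino acid response, is also known to drive Slc7a11, and a list of Atf4 and 11 of its targets was read beside it. Of the 11 targets, 1 rose (Phgdh, 0.32, edgeR adjusted p = 0.03) and 5 fell in uninjured BALF at 6 h, where 10.6% of all genes rose and 7.82% fell, and the other 5 did not pass. Atf4 itself fell by 0.29 (edgeR adjusted p = 0.043), and the median of the 12 was -0.36. With replicates 1 and 2 summed 4 of the 12 fell. In injured BALF at 6 h 5 targets and Atf4 fell (median -0.49, 11.4% of all genes fell). The part of ATF4 in the Slc7a11 values was not tested. Chac1, which degrades glutathione, fell by 1.41 ± 0.19 (edgeR adjusted p = 6.4e-06), Trib3 by 1.79 ± 0.37 (0.0011), Ddit3 by 0.90 ± 0.16 (1.5e-04) and Sesn2 by 0.61 ± 0.13 (0.0013) in uninjured BALF. At 24 h 7 of the 12, Atf4 among them, were lower in injured BALF than in media, and 3 with replicates 1 and 2 summed (12.2% of all genes were lower).

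The genes whose 12 group means of log2 CPM most resembled the mean of the 10 were Cbr3 (Pearson r = 0.996 among 10615 genes compared), Procr (0.989), Mgme1 (0.968), Hsph1 (0.967) and Abcc4 (0.964). Cbr3 was also the closest gene to Srxn1 (0.982), Gclm (0.985) and Gclc (0.963). The closest was Sqstm1 to Slc7a11 (0.979), Psmd11 to Hmox1 (0.99), Metap1 to Txnrd1 (0.991) and Slc48a1 to G6pdx (0.98). These values describe likeness over 12 means that share treatments.

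Sex made no called difference. Between male and female libraries, over all treatments and times, none of the 10 passed in edgeR or DESeq2 (3.03% of all genes were higher and 2.31% lower in males in edgeR), and 1 had an unadjusted p under 0.05 in edgeR. The lowest adjusted p was that of Slc7a11, with a male minus female log2 difference of -0.77 ± 0.33 (edgeR adjusted p = 0.21), which passed without male injured BALF replicate 3 at 24 h (adjusted p = 0.037). Neither the effect of uninjured BALF nor that of injury, each averaged over 6 h and 24 h, was called different between the sexes for any of the 10. None of them had an unadjusted p under 0.05, and edgeR called 0 of 15901 genes in either test. Opposite sex differences at 6 h and 24 h would cancel in this average, and the times were not tested separately.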

How the data were processed

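RNA was measured in 36 libraries of mouse lung pericyte-like cells, made with a stranded mRNA kit per the labels' protocols. The authors deposited 1 table of read counts per gene. STAR 2.5.2b, RSEM 1.2.31, DESeq2 and the mouse build GRCm38 are listed, without their roles, per the submitters' processing notes. The deposited counts were whole numbers and were used as deposited. If they are rounded RSEM estimates, reads shared by similar genes were divided by the estimator, which limits values of genes with near-identical copies.

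Identifiers were matched to symbols (48349 of 48795, 99.1%, and unmatched ones held at most 0.051% of a library's counts). Genes were filtered with filterByExpr, leaving 15901. A fit over 12 groups of sex, treatment and time was made in edgeR 4.0.16 (R 4.3.3) with TMM factors (0.874 to 1.092) and the quasi-likelihood test, with 24 residual degrees of freedom and a common biological coefficient of variation of 22.5%. P-values were adjusted by Benjamini-Hochberg over all tested genes in each of 14 comparisons, and a call is an adjusted p below 0.05. CPM used the TMM-scaled totals, and log2 CPM a prior count of 2. Totals ran from 17134840 to 35991683 counts, and the fewest counts of a member in any library were 105.

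On simulated data for uninjured BALF against media at 6 h over 15901 genes, edgeR recovered 28, 45, 50 and 50 of 50 genes changed 1.5-, 2-, 4- and 8-fold, with 11 false calls (DESeq2 1.42.0: 32, 45, 50 and 50, with 26). The simulated libraries were independent, the changed genes were all raised, and no other gene differed between groups. These counts therefore do not give the error rate in the real libraries, which may share origins. Alternatives were DESeq2, RLE and upper-quartile scaling, no filter, the replicate number as a block, only the groups compared, replicates 1 and 2 summed, 4 libraries of another serial range left out, and each replicate number and each library left out.

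The 10 genes, the pathway lists and the marker lists were chosen with earlier results of these data known. In each list, regulators Nfe2l2, Keap1, Bach1, Mafg and Sqstm1 aside, up to 4 genes were eligible to be named by the lowest p in uninjured BALF against media at 6 h and up to 4 by the lowest p in injured against uninjured BALF at 6 h. Mafk and the genes called at 24 h between the BALF treatments were named after their values were seen, as was the choice of examples among the markers. The 5 genes most like the mean of the 10, and the closest gene of some members, were taken by Pearson correlation over group means. In the heme and iron list 1 name matched no symbol.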

Additional observations from a re-analysis of the deposited data

Results flagged for a closer look

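In 13 of 60 sets (10 genes in 6 treatments and times) 1 library lay far from the other 5, by Dixon's criterion for 6 values (0.625). Chance alone gives about 1 in 20 for a single set. The 60 sets share libraries and their genes moved together, so the 13 cannot be set against that rate. In media at 6 h female replicate 3 was the far library for 6 genes: Slc7a11 (40.2 CPM, the others 4.04 to 12.3), Srxn1 (150.5, 88.5 to 99.4), Gclc (102, 53 to 66.1), Gclm (164, 81.9 to 98.3), Nqo1 (303, 90.8 to 106) and Osgin1 (13.1, 5.71 to 7.13). In media at 24 h Slc7a11 (28.5 CPM, the others 5.1 to 12.3) and G6pdx (108, 72.8 to 83.1) were high in female replicate 3, and Srxn1 was low in female replicate 1 (52, 78 to 92.2). Female replicate 1 of media at 24 h also had a mitochondrial share of 3.87%, against 1.2% to 2.05% in the other libraries. Its median absolute log2 CPM differences from replicates 2 and 3, 0.395 and 0.414, were the largest within any group. This library is part of the media set in the 24 h comparisons with media. In uninjured BALF at 24 h female replicate 1 was far above the others for Nqo1 (483 CPM, 80.9 to 175) and G6pdx (224, 72.7 to 100.3). At 6 h G6pdx was high in female replicate 3 of uninjured BALF (189 CPM, 92.4 to 128) and of injured BALF (171, 78.2 to 107). These 13 values came from 6 libraries, all female. The criterion can miss a far library where another of its set is also far. In injured BALF at 6 h male replicate 3 (median 1.08 above its set on the log2 scale) was not flagged, beside female replicate 3 (0.78).

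The effect of uninjured BALF on the log2 scale was lower at 24 h than at 6 h for Hmox1 (-1.89), Srxn1 (-1.90), Gsr (-0.87) and Osgin1 (-1.88). The difference between injured and uninjured BALF was higher at 24 h than at 6 h for Srxn1 (2.03) and Gsr (1.02). Each of these differences passed edgeR's test of the difference itself, with adjusted p from 0.013 to 0.047. None of these calls held with replicates 1 and 2 summed. Those for the uninjured BALF effect were also lost without the 4 libraries of the other serial range. The Srxn1 call for the injury effect was lost in most fits that left out 1 library, and the Gsr call in a few.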

How the results depend on the processing

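Of 1314 counts of called genes recomputed under the alternatives, 1220 stayed within 1.5 times and 94 moved. Comparisons with no called gene in the main fit are included, such as male against female, and count as unchanged when none is gained. Many alternatives only left out a library, which was often outside the groups compared. The 1220 therefore do not measure how stable the calls were. Of 17004 values of single genes, 450 lost and 224 gained a call. No called value changed sign, and 265 values that passed in neither fit had the other sign.

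Of the 10 genes, the number higher in uninjured BALF than media at 24 h was 1, and it was 3 with DESeq2, 2 with no filter, and 0 with only the groups compared, with replicates 1 and 2 summed or without the 4 libraries of the other serial range (0 to 8 over fits leaving out a library or a replicate number). The 5 lower in injured than uninjured BALF at 6 h became 0 with replicates 1 and 2 summed (0 to 8). At 24 h DESeq2 called 1 higher (0 to 2). For 24 h against 6 h in media, 1 lower became 2 with DESeq2 or only the groups compared and 0 summed (0 to 2). In injured BALF, 0 higher became 1 with upper-quartile scaling (0 to 2), and 2 lower became 1 with only the groups compared or summed (1 to 2). The 4 genes with a smaller uninjured BALF effect at 24 h became 0 when summed or without the 4 libraries (0 to 5). The 2 with a higher injury effect at 24 h became 5 with DESeq2, 4 with no filter, 1 with upper-quartile scaling or without the 4 libraries, and 0 with only the groups compared or summed (0 to 6). For male against female, 0 lower became 0 to 1 when libraries were left out. Summing or leaving out leaves fewer libraries, and the cause of the other changes was not tested.

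The replicate numbers were not taken to pair the libraries. Of 198 pairs of same-numbered libraries in different groups, 113 had deviations correlated above 0.1 (median 0.14, against -0.07 for 396 pairs of other numbers). In addition, 27 of 36 libraries were closest to 1 of their own number. The pairs set female with male libraries as well as libraries of the same sex. They therefore cannot exclude a shared origin within a sex, which the main tests would ignore. With the replicate number as a block, 4 genes were higher in uninjured BALF at 24 h in place of 1 and 10 in place of 9 at 6 h, and over all genes the 138 calls at 24 h became 240.

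Over all genes, upper-quartile scaling changed the split of higher and lower calls. For uninjured BALF against media at 6 h it went from 1679 and 1244 to 1346 and 1642, for injured BALF from 2203 and 1808 to 1786 and 2286, for 24 h against 6 h in uninjured BALF from 2418 and 2463 to 3112 and 1896, and in injured BALF from 2032 and 2263 to 2466 and 1809. The uninjured BALF effect between times went from 110 and 202 to 151 and 154, and the injury effect from 24 and 14 to 18 and 17. Summing replicates 1 and 2 took the calls from 2923 to 1593 for uninjured BALF against media at 6 h, and from 546 to 105 and from 703 to 174 for injured against uninjured BALF at 6 h and 24 h.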
